A study of Homo sapiens with 2 samples.

Results

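The ETS family is a group of transcription factors that share a DNA-binding domain, the ETS domain, which recognises a core of GGAA. RUNX1 and ETS proteins are known to occupy neighbouring sites at many enhancers of blood cells, and several ETS genes are themselves expressed in mammary epithelium, where they act in lineage choice, growth factor response and tumor progression. RUNX1 binding in and around 10 genes of this family was described here: ETS1, ETS2, ERG, FLI1, ETV4, ETV5, ETV6, ELF1, ELF3 and EHF. The genes were chosen by name, and a RUNX1 peak belonged to a gene when its summit, the position of highest signal, lay in the RefSeq interval of the gene or within 50 kb on either side. All 10 genes were found among 20033 protein-coding genes, and 14 of the 13591 peaks in the list belonged to them.

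RUNX1 was mapped by chromatin immunoprecipitation and sequencing (ChIPseq) in MCF10A, an established line of non-tumorigenic human mammary epithelial cells. The RUNX1 gene had been deleted in this line, and an inducible RUNX1 carried by lentivirus was switched on with doxycycline, 1 µg/ml for 24 h. These cells were grown with 5% horse serum, 20 ng/ml EGF, insulin, hydrocortisone and cholera toxin, which the ChIP and the input share. There was 1 library made with anti-RUNX1 (80338845 tags kept) and 1 of input DNA without antibody (87410774 kept), so no value has a replicate, no sample without RUNX1 was analysed, and no test between groups was made. The study turned to a cell line with added RUNX1 after ChIPseq of the natural protein showed no strong binding, with low RUNX1 expression or low antibody affinity given as possible reasons, so the peaks show where induced RUNX1 was found. Positions are on hg38, and the authors' values are given for each peak: the pileup (how many ChIP tags, once extended, cover the summit), the fold enrichment (the ratio of pileup to local background, each with 1 added) and the −log10 q. Intervals in brackets after a pileup are exact 95% Poisson intervals, which cover counting error only.

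At least 1 summit was found at 7 of the 10 genes. ETS2, ELF3 and EHF had 3 each, ETV6 had 2, and ETS1, FLI1 and ETV4 had 1 each. ERG, ETV5 and ELF1 had 0. By the same rule 52.1% of all protein-coding genes had a summit, and 53.4% of the 15156 between 6.60 and 295 kb, the range of these genes. So wide a range does not match these genes in length, with a median of 95.5 kb against 24.1 kb over all protein-coding genes. With 10 genes and no replicate, 7 is a description and was not tested against that share. At least 3 summits were found at 13.9% of all protein-coding genes, and 6.67% had more than 3. The 3 genes with 3 summits held 9 of the 14.

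**Figure D1:**
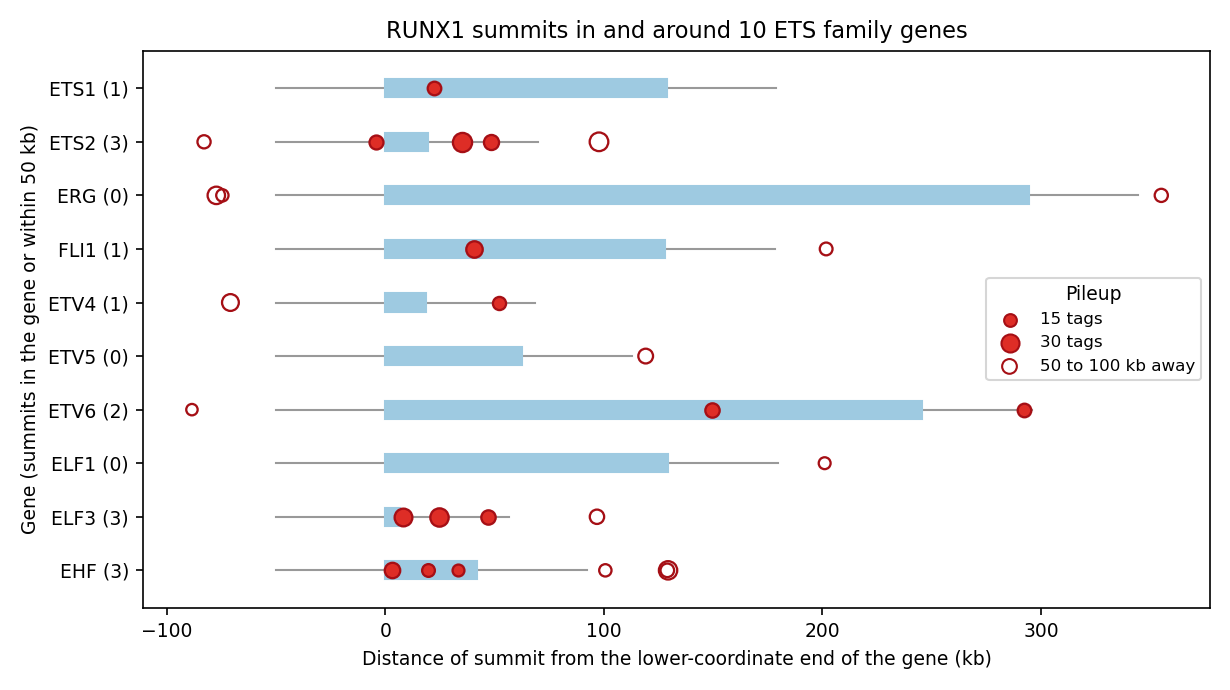
Each row is a gene, drawn as a blue bar from its lower-coordinate end (0 on the x axis, in kb), with a grey line for 50 kb on either side; filled circles are the 14 summits counted, open circles those 50 to 100 kb away (1 summit is drawn at both ERG and ETS2), and circle area follows the pileup. The summits of EHF lie inside the gene, those of ELF3 and ETS2 lie outside, and the 3 genes without a filled circle have an open one.

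Of the 14 summits, 6 lay inside their gene and 8 outside. The strand was read from listed promoter windows for 7 of these 8, and 1 lay before the gene while 6 lay past its end. ETV4 had no such window, so its summit, on the higher-coordinate side of the gene, was not placed. The 6 were all at ELF3, ETS2 or ETV6, and the share over all genes was not computed. Exons and introns were not told apart. For every one of the 14 summits the nearest protein-coding gene was the ETS gene itself. Over all protein-coding genes, 49.2% of the 21409 pairs of a gene and a summit in its window had that gene as the nearest, and for the 18 other ETS genes it was 10 of 22.

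The promoter sequence of EHF is shown first because, of the 13 promoter windows listed for 6 of these genes, it is the one that a peak overlapped. The ETS2 window is shown because it holds the RUNX core without a peak. That of ELK3, an ETS gene outside the 10, is shown because a peak overlapped it and the window lacks the core. Each run is RefSeq sequence of GRCh38.p14, 5′ to 3′ along the gene, from 250 bases before a listed transcription start to 30 bases after it. Capitals mark the RUNX core TGTGGT or its reverse complement ACCACA.
EHF, chr11:34624007-34624286, plus strand: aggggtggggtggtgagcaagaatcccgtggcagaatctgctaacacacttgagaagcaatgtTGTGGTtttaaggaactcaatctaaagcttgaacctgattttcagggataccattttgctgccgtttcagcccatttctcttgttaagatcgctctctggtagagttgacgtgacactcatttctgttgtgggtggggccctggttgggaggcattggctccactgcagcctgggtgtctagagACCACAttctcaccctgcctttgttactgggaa
ETS2, chr21:38804933-38805212, plus strand: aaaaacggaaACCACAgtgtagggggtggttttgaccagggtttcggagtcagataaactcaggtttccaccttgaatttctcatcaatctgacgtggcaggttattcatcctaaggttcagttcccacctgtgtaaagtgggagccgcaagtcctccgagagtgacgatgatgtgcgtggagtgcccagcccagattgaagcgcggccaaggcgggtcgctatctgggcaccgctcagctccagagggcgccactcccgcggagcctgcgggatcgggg
ELK3, chr12:96194125-96194404, plus strand: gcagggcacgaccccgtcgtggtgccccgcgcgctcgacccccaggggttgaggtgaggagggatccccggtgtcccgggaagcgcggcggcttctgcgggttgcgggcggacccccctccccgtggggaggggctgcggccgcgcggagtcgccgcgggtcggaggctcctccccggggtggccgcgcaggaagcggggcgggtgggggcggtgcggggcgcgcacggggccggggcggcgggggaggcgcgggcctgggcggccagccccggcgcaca

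EHF and ELF3 belong to the epithelium-specific subgroup of the family, whose members are expressed in glandular epithelia and take part in epithelial differentiation. EHF (chromosome 11, 34621093 to 34663288) had its 3 summits inside the gene. The peak nearest to a gene end spanned 34624076 to 34624438 and was 363 bp wide, and only 3.87% of all peaks were wider. Its summit at 34624294 lay 37 bp downstream of a listed start at 34624257, a start internal to the RefSeq interval, and 3.20 kb from the lower-coordinate end where the interval begins. The pileup was 22 tags (13.8 to 33.3), with a 6.12-fold enrichment and a −log10 q of 9.38.

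Inside that peak, 1 match to the RUNX core lay on the minus strand at 34624254 to 34624259, from 3 bases before the EHF start to the third transcribed base, and 35 bp from the summit. A further match, on the plus strand at 34624070 to 34624075, ended 1 bp before the first base of the peak. So the peak held 1 of the 2 matches in the window. The window shares 231 of the 363 bases of the peak, and the rest of the peak was not searched. Over all 35116 promoter windows of 300 bases in the table, 13.1% held TGTGGT on either strand and 1.31% held it more than once. Among the 580 windows that a peak overlapped, 31.2% held it and 6.72% held it more than once. The ETS core GGAA, a shorter word, was in 95.5% of all windows, and the printed EHF stretch held 2. A match is a description of letters and no evidence of a bound site.

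The other EHF peaks were lower. The peak at 34640373 to 34640563 had 15 tags (8.40 to 24.7) and a fold enrichment of 5.00, and that at 34654162 to 34654380 had 13 tags (6.92 to 22.2) and 4.37. At both the input level was at the genome-wide background of 2.20 tags, its lowest value in the list, so lower local input would not show. The intervals of the 3 EHF pileups overlap, so their order is not resolved at this depth. Past the 50 kb limit, 3 further summits lay 58.5, 86.8 and 87.2 kb from the gene, the last with 31 tags (21.1 to 44.0). The neighbouring gene ELF5, a regulator of the alveolar lineage of the breast, 107 kb from EHF, had 1 summit inside it with 12 tags (6.20 to 21.0) over 74 bp, the smallest width in the list.

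ELF3 (chromosome 1, 202010587 to 202017183) is the shortest of the 10 genes at 6.60 kb and had the highest density, 2.81 summits per 100 kb of window. All 3 summits lay past its end. The nearest peak spanned 202018482 to 202018935 with its summit 1.43 kb past the gene. It was 454 bp wide, the widest of the 14 and wider than all but 1.39% of the list, with 29 tags (19.4 to 41.6) and a fold enrichment of 6.87. The next, at 202034910 to 202035040 and 17.8 kb away, had 31 tags (21.1 to 44.0), but was narrower at 131 bp and had a lower fold enrichment of 5.72. The intervals of these pileups overlap, so their order in height is not resolved.

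The last ELF3 peak, 40.3 kb away, had 19 tags (11.4 to 29.7) and 4.41-fold enrichment. The input level, which is the local background recovered from pileup and fold enrichment, was 1.53, 2.09 and 1.61 times the genome-wide background at these 3 peaks. ELF3 lies on the long arm of chromosome 1, where the 830 peaks from 140 Mb onward had a median of 1.67 times, against 1.11 over all peaks. Pileups there are thus set against a raised input, and its part in the number of peaks at ELF3 was not tested. The single promoter window of ELF3 held no TGTGGT.

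ETS1 and ETS2 are the founding members of the family and act downstream of the ERK pathway, which EGF activates. ETS2 (chromosome 21, 38805183 to 38824955) had 3 summits, none inside the gene. The tallest and most enriched of all 14 peaks was 15.2 kb past its end, at 38840056 to 38840326, with 34 tags (23.5 to 47.5), a fold enrichment of 9.32 and a −log10 q of 20.9. Of all peaks, 5.23% had a higher pileup and 5.47% a higher fold enrichment. It was 271 bp wide. The Poisson interval of its pileup overlaps those of the ELF3 peaks with 31 and 29 tags, so the order in height is not resolved at this depth.

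The other ETS2 summits lay on either side of the gene. That 4.16 kb before the gene had 18 tags (10.7 to 28.4) and a fold enrichment of 5.30, and that 28.6 kb past the end had 21 tags (13.0 to 32.1) and 5.86. The RUNX core in the ETS2 promoter window shown above, at 38804943 to 38804948, was 3.83 kb from the nearest peak. A further summit 78.0 kb past the gene had 32 tags (21.9 to 45.2) and is outside the limit. ETS1 (chromosome 11, 128458765 to 128587558), by contrast, had 1 summit inside the gene at 128481269, 22.5 kb from its lower-coordinate end, with 17 tags (9.90 to 27.2) and a fold enrichment of 5.62. Its input level was at the genome-wide background, the lowest value in the list.

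**Figure D2:**
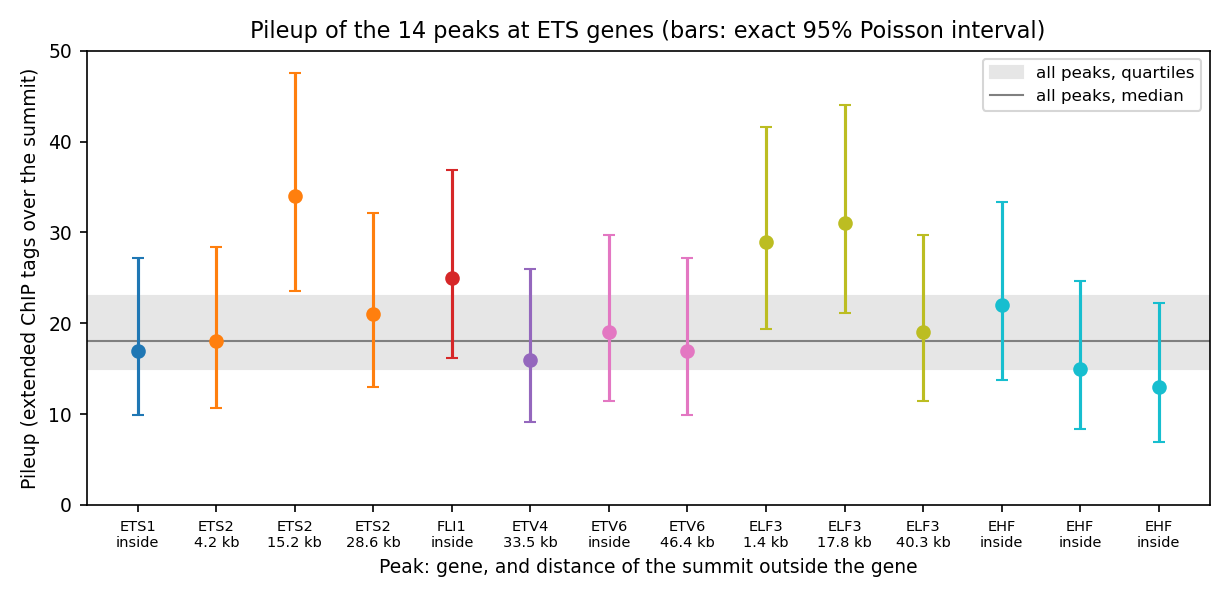
Pileup of the 14 peaks (points, in extended ChIP tags) with exact 95% Poisson intervals (bars), labelled by gene and by distance of the summit outside it; the grey band and line are the quartiles and the median of all 13591 peaks. The intervals of 3 peaks, the tallest of ETS2 and the 2 tallest of ELF3, lie wholly above the median of 18 tags.

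ERG and FLI1 are close paralogs best known from blood stem cells, endothelium and, after gene fusion, prostate cancer and Ewing sarcoma. ERG (chromosome 21, 38367261 to 38661783) is the longest of the 10 genes at 295 kb and had 0 summits in a window of 395 kb. Its nearest summit, 60.5 kb away with 16 tags (9.15 to 26.0), lay in the 143 kb between ERG and ETS2. On the other side, 2 summits inside the potassium channel gene KCNJ15 lay 74.5 and 77.3 kb away, the farther with 28 tags (18.6 to 40.5) and a fold enrichment of 9.06. FLI1 (chromosome 11, 128685132 to 128813267) had 1 summit inside it, at 128725791, with 25 tags (16.2 to 36.9) over 130 bp.

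That FLI1 peak ranked differently by its measures: 16.7% of all peaks had a higher pileup, but 64.4% had a higher fold enrichment, which was 4.65. Its input level was 2.09 times the genome-wide background, which equals 5 input tags over the summit, each scaled by 0.919. The counting error of so few input tags was not computed. ETS1 and FLI1 are neighbours 97.6 kb apart, and their windows overlap slightly without a shared summit.

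ETV4 and ETV5 belong to the PEA3 subgroup, targets and effectors of receptor tyrosine kinase signalling in branching epithelia. ETV4 (chromosome 17, 43527846 to 43546340) had 1 summit, 33.5 kb outside the gene, with 16 tags (9.15 to 26.0) over 208 bp. It was the weakest of the 14, with a fold enrichment of 3.04, which 97.2% of all peaks exceeded, and a −log10 q of 1.96 against the limit of 1.30. As at FLI1 the input level equalled 5 scaled input tags, 2.09 times the genome-wide background. ETV5 (chromosome 3, 186046314 to 186109089) had 0 summits, and the nearest, 56.4 kb away inside the diacylglycerol kinase gene DGKG, had 20 tags (12.2 to 30.9).

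ETV6 encodes a repressor needed for blood stem cells and is the fusion partner of RUNX1 in childhood leukemia. ETV6 (chromosome 12, 11649674 to 11895377) had 1 summit inside, 149 kb downstream of its listed start, with 19 tags (11.4 to 29.7) and a fold enrichment of 5.38. The other was 46.4 kb past the end of the gene, with 17 tags (9.90 to 27.2) and 4.79. It was the member nearest to the 50 kb limit from inside, and the ETV5 summit at 56.4 kb was the nearest from outside. ELF1 (chromosome 13, 40931919 to 41061386), a broadly expressed activator, had 0 summits, and the nearest was a weak peak 71.6 kb away, 136 bp from KBTBD6, with 13 tags (6.92 to 22.2) and a fold enrichment of 2.99. Thus the 3 genes without a summit each had one between 56.4 and 71.6 kb away.

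The medians of the 14 peaks in height, width and enrichment were close to those of the whole list. Their median pileup was 19.0 tags (range 13 to 34) against 18 over all peaks, and 8 of the 14 were above that median. The median width was 164 bp (108 to 454) against 153, and the median fold enrichment was 5.34 (3.04 to 9.32) against 5.06. None reached a fold enrichment of 10, which only 519 of the 13591 peaks in the list did. Leaving out each of ETS2, ELF3 and EHF in turn gave median pileups of 18 to 19 tags. The Poisson interval lay above 18 tags in 3 of the 14, or 21.4%, and in 12.8% of all peaks. These 3 were the peak 15.2 kb past ETS2 and the nearest 2 at ELF3.

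The input level was at the genome-wide background in 3 of the 14 peaks, or 21.4%, compared with 39.5% of all peaks, taking ratios within 1% as equal. The level did not fall below that background in any peak, so lower local input would read the same. The 3 were the ETS1 peak and the lower 2 of EHF. The highest ratio was 2.09, at FLI1, ETV4 and the middle ELF3 peak. None approached the strongly raised input seen elsewhere in the list, where the ratio reached 34.6. The part of the input level in the heights was not tested.

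**Figure D3:**
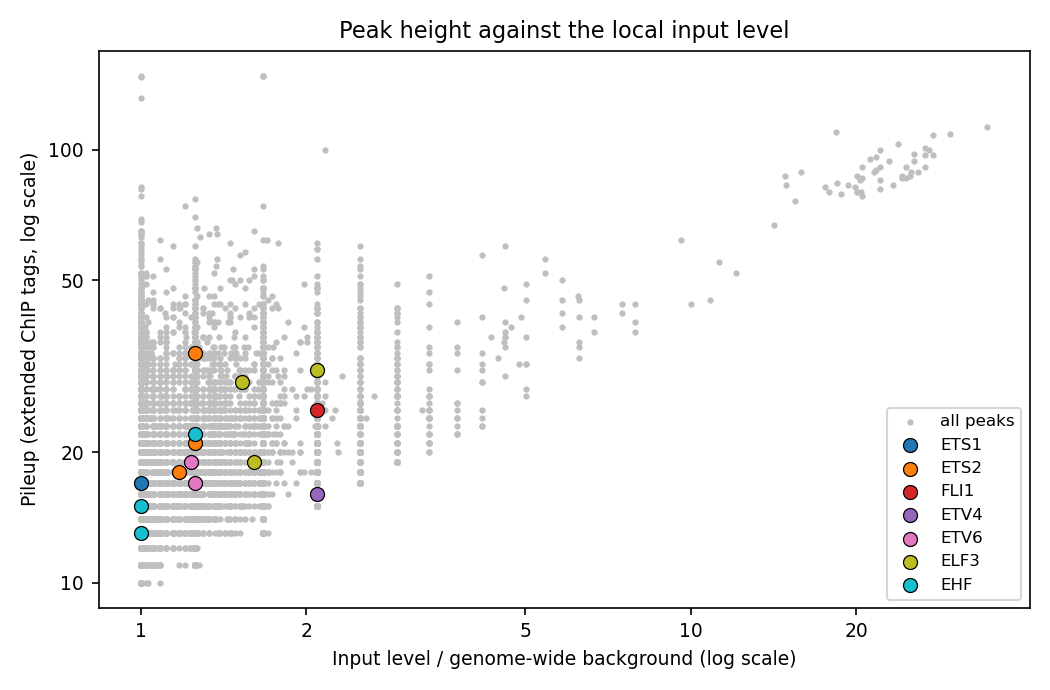
Pileup (extended ChIP tags, log scale) against the input level as a multiple of the genome-wide background (log scale) for all 13591 peaks (grey) and the 14 peaks at ETS genes (colored by gene). The 14 lie between 1 and 2.09 on the x axis; FLI1, ETV4 and 1 ELF3 peak are the farthest right, and the ETS2 peak with 34 tags is the tallest.

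The count of genes depended on the distance allowed. With the gene interval alone, a summit was found in ETS1, FLI1, ETV6 and EHF, or 4 of 10, against 18.7% of all protein-coding genes. The median length of the 10 genes was 95.5 kb against 24.1 kb, so their intervals offer more room for a summit, and its part in this count was not tested. Within 5 kb ETS2 and ELF3 joined them, which gave 6, against 24.8% of all protein-coding genes, and within 100 kb all 10 genes had a summit, against 68.2%. When only peaks enriched 5-fold or more were counted within 50 kb, ETS1, ETS2, ETV6, ELF3 and EHF kept a summit, or 5 of 10, against 35.1%. The windows of the 10 genes together held 6.75 summits per Mb (95% Poisson interval 3.69 to 11.3), and those of all protein-coding genes 5.64, which lies within that interval.

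A transcription start was listed for 6 of the 10 genes, ETS2, ERG, ETV6, ELF1, ELF3 and EHF. A summit lay within 1 kb of a listed start in EHF alone, 1 of 6, against 4.87% of the protein-coding genes with a listed start. Of their 13 promoter windows, 2 held TGTGGT, 1 of EHF and 1 of ETS2, or 15.4% against 13.1% of all windows. With the looser word TGNGGT it was 8 of 13, against 43.2% of all windows. Windows of the same gene can overlap, and overlapping ERG windows were both counted here for the same match.

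**Figure D4:**
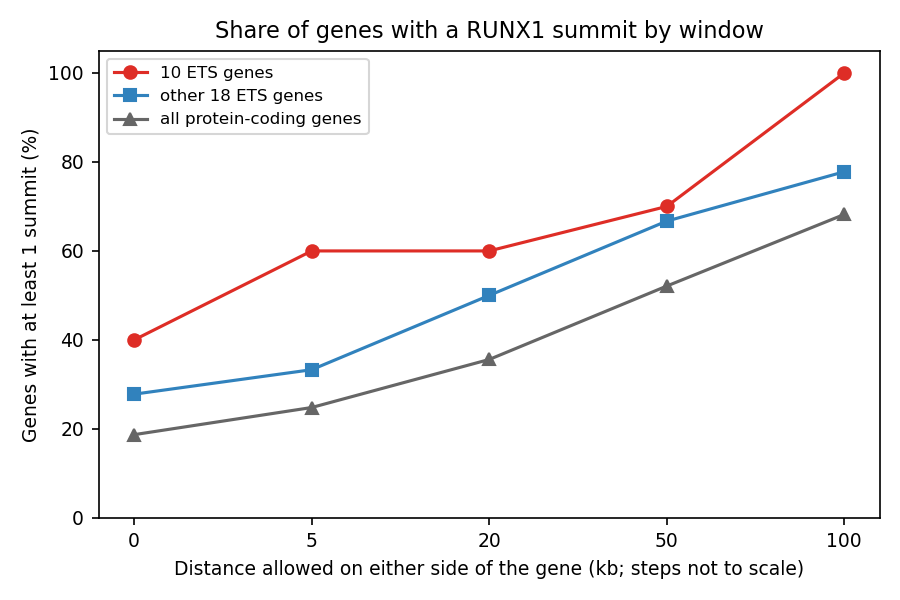
Share of genes with at least 1 summit (y axis, %) by the distance allowed on either side of the gene (x axis, kb, steps not to scale) for the 10 ETS genes, the other 18 ETS genes and all protein-coding genes. All 3 lines rise with distance; at 50 kb they stand at 70.0, 66.7 and 52.1%, and with the gene interval alone at 40.0, 27.8 and 18.7%.

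The other 18 human ETS genes, taken as a list from general knowledge of the family, were read by the same rule. A summit was found at 12 of them, with 22 peaks in all, against the same 52.1%. Their median pileup was 16.0 tags (11 to 26) and their median fold enrichment 4.37, and none had a Poisson interval wholly above 18 tags. ELK3, a ternary complex factor that acts with serum response factor, had 4 summits, the most in the family. One of its peaks, at 96193911 to 96194010, lies so near the tallest that merging of peaks within 1 kb would join them. ELK3 would then be level with ETS2, ELF3 and EHF. The tallest ELK3 peak, at 96194068 to 96194279, had its summit 167 bp before the listed start, with 26 tags (17.0 to 38.1) and a fold enrichment of 8.43. The promoter window of ELK3, printed above, held no TGTGGT. It shares 155 of the 212 bases of that peak, and the rest of the peak was not searched.

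ELK1, another ternary complex factor, had a summit 266 bp downstream of its listed start, with 12 tags (6.20 to 21.0), and another 5.10 kb away at the complement gene CFP with 16 tags (9.15 to 26.0). SPI1, which encodes the myeloid regulator PU.1, had a summit inside the gene, 514 bp from its lower-coordinate end, with 21 tags (13.0 to 32.1). ERF, a repressor controlled by ERK, had 3 summits, all between 47.9 and 49.9 kb away and inside other genes. ELF4, ELK4, FEV and SPDEF had 2 each like ELK1, and ETV1, ETV2, ETV7 and ELF5 had 1 each. The ELF4 summits lay inside RAB33A and those of ELK4 inside SLC60A1. Those of FEV were nearest to CRYBA2, that of ETV2 to HAUS5, and the farther of SPDEF to ILRUN. At ELF4, ELK4 and FEV both peaks lie within 1 kb of each other, so merging at that distance would join them. ETV3, ETV3L, ELF2, GABPA, SPIB and SPIC had 0.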

How the data were processed

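RUNX1 ChIPseq was done on 1 immunoprecipitated and 1 input library, grouped by the antibody in their labels. The submitters' processing notes name Bowtie2, a read aligner, and the build hg38. Per the file headers, the authors called peaks with MACS 2.1.2 at a q limit of 0.05, extending 54 bp tags to 74 bp, keeping no more than 1 tag at any position and strand, scaling the input down to the ChIP library, and taking background over 1 kb and 10 kb. The pileup the authors deposited is a signal, the fold enrichment is a ratio, and the q is a −log10 value (the p was not used here). Removal of duplicates took the ChIP library from 89501295 to 80338845 tags and the input from 94686274 to 87410774.

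Summits were assigned to gene intervals of the RefSeq table of GRCh38.p14, the same build as hg38. The input level was computed as (pileup + 1) / fold enrichment − 1, and the genome-wide background, 2.20 tags, from kept tags, extension and the effective genome size. The input level was nowhere below the genome-wide background, so a level at that background means local input at or below it. The scale for input tags was 0.919. An input level within 0.02 of a whole number of scaled tags was read as that number of tags. Motifs were searched on both strands of the RefSeq promoter windows, where ETS1, FLI1, ETV4 and ETV5 had no entry. Sequences of the other peaks were not used here.

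The 10 genes and the list of 18 further ETS genes were chosen with earlier results of these data known. All 10 genes were named, each with its peaks, together with the other ETS genes and the gene nearest to a named summit. No test was made, since each group has 1 library. The code that counts summits in windows was checked against a direct count on simulated intervals. Alternatives were other distances, peaks of q under 0.01, peaks enriched 5-fold or more, overlap of any base, merging of peaks within 1 kb, assignment to the nearest gene and leaving out genes. Python 3.11, pandas 2.3.3, NumPy 2.4.6, SciPy 1.17.1 and matplotlib 3.10.9 were used.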

Additional observations from a re-analysis of the deposited data

How the results depend on the processing

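Of 48 alternatives over 7 results, 39 left the value near the one reported (a count within 1.5 times, a median within its 95% binomial interval from the ordered values). With the gene interval alone the ETS genes with a summit fell from 7 to 4, their summits from 14 to 6 and protein-coding genes with a summit from 10432 to 3755, and with 5 kb there were 8 summits and 4962 protein-coding genes, since smaller windows hold fewer summits. With 100 kb there were 28 pairs of a gene and a summit, from 27 summits, since 1 lay within reach of both ERG and ETS2. With peaks of 5-fold enrichment or more there were 8 summits, since weaker peaks are dropped. Among the 3 peaks whose input level was at the genome-wide background the median pileup was 15 tags in place of 19. The looser TGNGGT was in 8 promoter windows of ETS genes in place of 2, since it includes TGTGGT. At 13 to 34 tags, the Poisson intervals of the 14 pileups run from 6.92 to 22.2 tags for the lowest and from 23.5 to 47.5 for the tallest, and ChIP was done once. No paired analysis was possible because the ChIP and the input are 1 library each.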
